A study of Mus musculus with 8 samples.

Results

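The β subunits of the sodium-potassium ATPase were represented by 3 genes, *Atp1b1* (ENSMUSG00000026576.12), *Atp1b2* (ENSMUSG00000041329.13) and *Atp1b3* (ENSMUSG00000032412.8), of the 55385 genes counted. *Atp1b2* was selected on its decrease in the mESCs given an *Eftud2* hairpin, that is, on its log2 fold changes against nt-shRNA, and its paralogs were then taken with it, so the values of *Atp1b2* are described without a test, while *Atp1b1* and *Atp1b3* were tested. All 3 genes passed the filter on low counts that left 17445 genes. RNA-seq was performed on R1 mESCs, a wild-type mouse embryonic stem cell line grown in N2B27 medium with 2i and Lif. The cells were transiently infected for 2 days with lentivirus carrying shRNA1 or shRNA2, which both target *Eftud2*, or the nt-shRNA control, and all of them were then selected in puromycin for 3 days. There were 3 biological replicates for shRNA1, 3 for shRNA2 and 2 for nt-shRNA. *Eftud2* encodes a GTPase of the U5 snRNP, and the comparison asks how β subunit transcripts changed after a partial loss of this splicing factor in selected populations of a single cell line.

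The sodium-potassium ATPase is the plasma membrane pump that exports sodium and imports potassium at the cost of ATP. Its catalytic α subunit carries out transport, and its glycosylated β subunit is needed for the α subunit to fold, leave the endoplasmic reticulum and reach the cell surface. *Atp1b1* encodes the widespread β1 isoform, *Atp1b2* the β2 isoform, also known as the adhesion molecule on glia, and *Atp1b3* the β3 isoform, while small FXYD proteins bind the assembled pump and tune its kinetics.

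Library depth ran from 19569525 to 29871048 counts, and a count of 3 corresponded to between 0.1 and 0.153 CPM, the per-million count after TMM normalization. *Eftud2* itself stood at 262.3 and 255.7 CPM in the nt-shRNA libraries, at 231.9, 229.2 and 225.3 CPM with shRNA1, and at 198.2, 202.1 and 234.7 CPM with shRNA2. All 6 knockdown libraries lay below both controls, and the shRNA1 and shRNA2 ranges overlapped. By qPCR the paper reports a larger loss of the *Eftud2* transcript with either hairpin than these counts show, and by western blot less EFTUD2 protein. The qPCR values were normalized to mitochondrial rRNA and compared by replicate pair, unlike these counts. The paper also plots an RNA-seq estimate of the knockdown by DESeq2, which was not compared here. The log2 fold change of *Eftud2* was -0.29 with shRNA2 (edgeR quasi-likelihood test, adjusted p = 0.00122) and -0.18 with shRNA1 (edgeR, adjusted p = 0.0514), and the shRNA1 value turned to 0.06 when libraries were scaled by counts per base of exon. The shRNA1 value passed under 5 alternatives, with no filter (-0.18), with a replicate block (-0.21), with only the groups compared (-0.16) and without either of the last 2 shRNA2 libraries (-0.18 each), and the shRNA2 value did not pass by counts per base (-0.07). That scaling moved the median log2 fold change of all genes to 0.23 with either hairpin. Scaling by library size alone moved it to 0.11 with shRNA1. Markers of embryonic stem cells (*Pou5f1*, *Sox2*, *Nanog* and 5 others) were all detected and summed to between 4357 and 4438 CPM in nt-shRNA, 4855 and 5026 CPM with shRNA1, and 5840 and 6031 CPM with shRNA2. Of the 8, 4 were called higher and 1 lower with shRNA1, and 6 higher and 1 lower with shRNA2. The largest rises with shRNA2 were those of *Klf4* (1.32), *Tbx3* (0.91) and *Nanog* (0.76). The marker called lower was *Pou5f1* with both hairpins (-0.35 and -0.29), and *Sox2* was called with neither, so the markers did not move together. Over all genes tested, 13.8% were called higher and 17.1% lower with shRNA1, and 27.2% higher and 28.7% lower with shRNA2. The sums did not overlap between groups and were higher where *Atp1b2* was lower, and their part in its values was not tested. Of 7 astroglia markers, *Aqp4*, *S100b* and *Slc1a2* were at or near 0 in every library, with at most 0.178 CPM. The other 4, *Gfap*, *Slc1a3*, *Aldh1l1* and *Gja1*, passed the filter and are described below. In such bulk RNA, fewer cells of a type and less RNA per cell cannot be told apart.

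The genes lie on separate chromosomes of the mouse genome (GRCm38), each on the minus strand. *Atp1b1* spans chr1:164437109-164458355, *Atp1b2* spans chr11:69599736-69605942, and *Atp1b3* spans chr9:96332655-96364442. Their merged exons measure 3081, 4085 and 2389 bases. Of the *Atp1b1* exon bases, 575 (18.7%) also belong to exons of *Nme7* on the opposite strand, where fragments could be assigned to neither gene, since strand was not used in counting and ambiguous fragments were dropped, so that its level per length is a lower estimate. *Atp1b2* and *Atp1b3* share no exon bases with another gene.

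The starts of *Atp1b1* and *Atp1b3*, the members that were tested, are shown because one was called lower with shRNA2 and the other higher with shRNA1. The RefSeq promoter table (GRCm38.p6) matched 2 of the 3 genes, each window running from 250 bases before to 50 bases after an annotated start. Capitals mark matches on either strand to the TATA-box letters TATAAA and to TATATA, to the box CCAAT and to the GC-box letters GGGCGG, and no match overlapped another. The window of *Atp1b1* is chr1:164458306-164458605 on the minus strand, and the first of 2 windows listed for *Atp1b3* is chr9:96364382-96364681 on the minus strand.
Atp1b1: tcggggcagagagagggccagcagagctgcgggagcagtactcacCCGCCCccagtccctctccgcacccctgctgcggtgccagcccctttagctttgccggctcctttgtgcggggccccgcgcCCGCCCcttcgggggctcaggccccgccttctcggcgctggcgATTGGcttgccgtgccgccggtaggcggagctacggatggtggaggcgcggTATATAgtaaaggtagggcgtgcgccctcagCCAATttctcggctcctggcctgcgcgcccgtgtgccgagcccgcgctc
Atp1b3: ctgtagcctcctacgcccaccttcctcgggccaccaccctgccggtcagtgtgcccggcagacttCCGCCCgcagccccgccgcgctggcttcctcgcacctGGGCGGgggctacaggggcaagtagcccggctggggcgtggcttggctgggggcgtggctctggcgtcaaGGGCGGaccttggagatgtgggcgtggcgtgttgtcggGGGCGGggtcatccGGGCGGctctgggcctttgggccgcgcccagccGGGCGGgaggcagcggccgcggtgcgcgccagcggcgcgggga
The *Atp1b1* window held 1 TATATA, 2 CCAAT and 2 GGGCGG matches and had a GC content of 71.0%. The first *Atp1b3* window held 6 GGGCGG matches, no match to the other motifs, and a GC content of 76.0%. The second *Atp1b3* window, chr9:96363666-96363965 on the minus strand, held no match to any of the motifs and had a GC content of 74.7%. Of all 32851 promoter windows of this length in the table, 13.6% held TATAAA, 5.67% TATATA, 37.4% CCAAT and 35.7% GGGCGG, and the median GC content was 52.7%.

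*Atp1b2* fell stepwise from nt-shRNA to shRNA1 to shRNA2. The nt-shRNA libraries gave 130.6 and 134.5 CPM, from 3483 and 3859 counts. The shRNA1 libraries gave 65.9, 61.9 and 71.5 CPM, from 1460, 1255 and 2005 counts. The shRNA2 libraries gave 28.6, 24.4 and 32.7 CPM, from 615, 541 and 712 counts. No library of any group overlapped those of another, with shRNA1 midway and shRNA2 lowest. These values correspond to log2 fold changes of -0.99 (SE 0.085) with shRNA1 and -2.21 (SE 0.089) with shRNA2 against nt-shRNA, and of -1.22 (SE 0.085) between shRNA2 and shRNA1, or 1.99-fold, 4.64-fold and 2.33-fold lower levels. They are the values on which the gene was selected, and its direction is no separate result.

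Among all tested genes, *Atp1b2* ranked number 117 from the lowest log2 fold change with shRNA2 and number 235 with shRNA1. Most genes below it had a lower level in nt-shRNA. Of the 1753 genes with a mean level in nt-shRNA at least as high, *Atp1b2* ranked 4 with shRNA2 and 11 with shRNA1. The genes just below it in the shRNA2 order were *Catsperd* (-2.23) and *Krt17* (-2.22), and those just above were *Pgk1-rs7* and *Car9* (each -2.21), and these log2 fold changes all lay within 1 SE of that of *Atp1b2*.

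**Figure D1:**
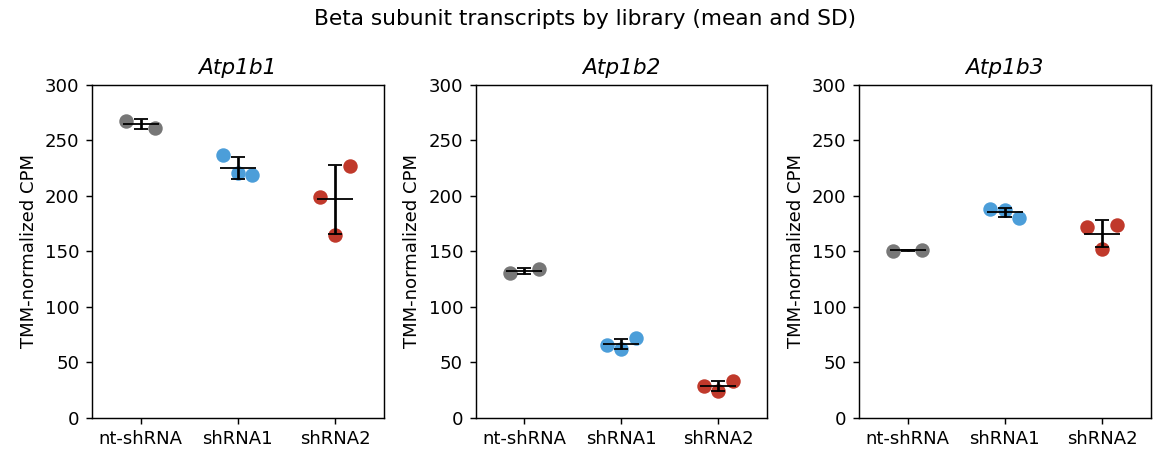
TMM-normalized CPM (vertical axes, linear from 0) of *Atp1b1*, *Atp1b2* and *Atp1b3* in each library of the 3 groups, with points for libraries and bars for the mean and SD. *Atp1b2* separates all groups, from about 132.5 to 66.4 to 28.6 CPM on average, whereas *Atp1b1* falls less and *Atp1b3* lies above the nt-shRNA level.

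*Atp1b1*, the most abundant of the 3 in the control cells, fell with shRNA2. It stood at 267.7 and 261.3 CPM in nt-shRNA, at 236.5, 220.3 and 219.0 CPM with shRNA1, and at 198.7, 164.9 and 226.5 CPM with shRNA2. All 6 knockdown libraries were below both controls, the groups given a hairpin against *Eftud2* overlapped, and the second shRNA2 library was the lowest of all. With shRNA2 the log2 fold change was -0.43 (SE 0.088, edgeR, adjusted p = 0.00041), or 1.34-fold lower. Without the second shRNA2 library this value was -0.31 and the gene was still called. With shRNA1 the log2 fold change was -0.23 (SE 0.088, 95% interval -0.42 to -0.05), which did not pass (edgeR, adjusted p = 0.0521) and turned to 0.00 when libraries were scaled by counts per base. Under that scaling the shRNA2 value was -0.20 and no longer passed (edgeR, adjusted p = 0.0619), while the median of all genes stood at 0.23. The direct comparison of shRNA2 with shRNA1 gave -0.20 (SE 0.080, 95% interval -0.36 to -0.03, edgeR, adjusted p = 0.0631).

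*Atp1b3* moved the other way and rose with shRNA1. It stood at 150.2 and 151.4 CPM in nt-shRNA, at 187.9, 187.5 and 180.5 CPM with shRNA1, and at 172.1, 152.2 and 173.7 CPM with shRNA2. The shRNA1 libraries were the highest, none overlapped another group, and the second shRNA2 library lay just above the controls. The log2 fold change with shRNA1 was 0.30 (SE 0.065, edgeR, adjusted p = 0.00179), a level 1.23-fold higher, and it passed under all 16 alternative settings. With shRNA2 it was 0.14 (SE 0.065, 95% interval 0.00 to 0.27), which did not pass (edgeR, adjusted p = 0.0762). Without the second shRNA2 library it was 0.20 and passed (edgeR, adjusted p = 0.00874). *Atp1b3* was lower with shRNA2 than with shRNA1 by a log2 fold change of -0.16 (SE 0.058, edgeR, adjusted p = 0.0386), so its order did not follow that of *Atp1b2*. This last call was lost when the first or second shRNA1, the second shRNA2 or the second nt-shRNA library was left out, with values between -0.15 and -0.10 for the first 3 of these and -0.16 for the last.

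Of the 2 β subunits tested, 1 was called in each comparison, *Atp1b3* higher with shRNA1, *Atp1b1* lower with shRNA2 and *Atp1b3* lower in shRNA2 against shRNA1. Over all genes tested, 30.9% were called with shRNA1 against nt-shRNA, 17.1% lower and 13.8% higher. With shRNA2 against nt-shRNA 55.9% were called, 28.7% lower and 27.2% higher. Between shRNA2 and shRNA1 35.6% were called, 18.7% lower and 16.9% higher. A count of 1 of 2 is close to these shares and is not a result about the β subunits as a group. The remaining family member, *Atp1b4*, had at most 0.09 CPM in any library and was not tested.

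**Figure D2:**
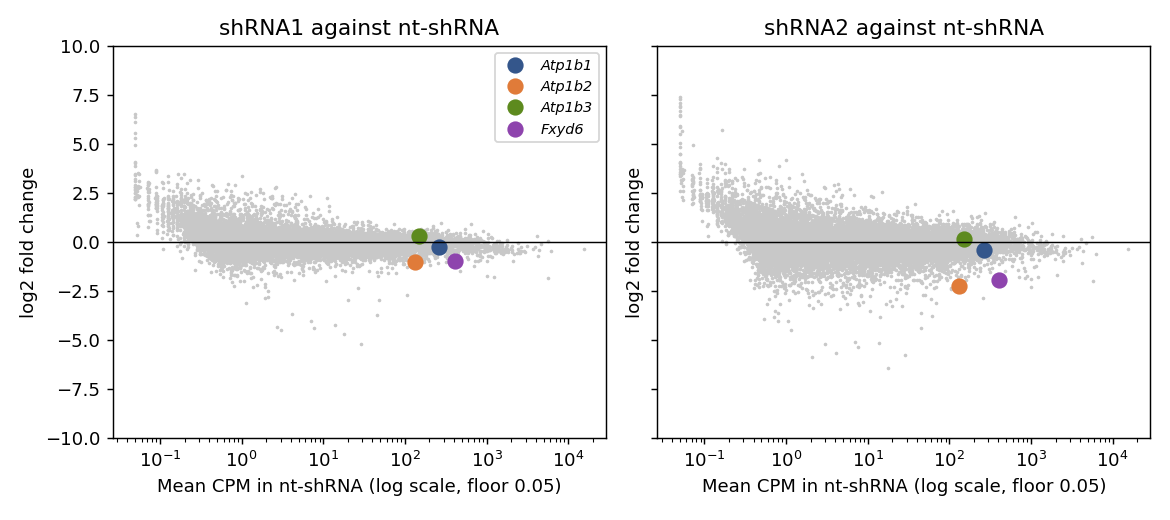
Log2 fold change against nt-shRNA (vertical axis) by mean CPM in nt-shRNA (horizontal axis, log scale) for the 17445 genes tested, shRNA1 left and shRNA2 right. Gray points are genes, and colored points mark the β subunits and *Fxyd6*. *Atp1b2* (-2.21) and *Fxyd6* (-1.93) lie at the lower edge of genes of their level with shRNA2, and *Atp1b1* and *Atp1b3* lie within the bulk.

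Since the isoforms differ in length, their relative amounts were compared per kilobase, as TPM, the per-million level after division by exon length, within each library. *Atp1b2* made up 17.6 and 18.2% of the summed β level in the nt-shRNA libraries, 9.40, 9.18 and 10.7% with shRNA1, and 4.88, 4.85 and 5.19% with shRNA2. The 3 groups did not overlap, as follows from the choice of the gene. *Atp1b1* made up 47.8 and 46.8% in nt-shRNA, 44.7, 43.3 and 43.3% with shRNA1, and 44.9, 43.4 and 47.7% with shRNA2. Its share with shRNA2 overlapped the control range. *Atp1b3* made up 34.6 and 35.0% in nt-shRNA, 45.9, 47.5 and 46.0% with shRNA1, and 50.2, 51.7 and 47.1% with shRNA2. Its share was higher in every knockdown library than in the controls, and shRNA1 and shRNA2 overlapped.

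The order of the TPM levels in nt-shRNA was *Atp1b1*, *Atp1b3*, *Atp1b2* in both libraries. The TPM ratio of *Atp1b1* to *Atp1b3* was 1.38 and 1.34 in nt-shRNA, 0.976, 0.911 and 0.941 with shRNA1, and 0.895, 0.840 and 1.01 with shRNA2. *Atp1b1* was thus ahead of *Atp1b3* in both controls, and behind it or level with it after *Eftud2* KD, with 1 shRNA2 library at 1.01. When the bases shared with *Nme7* were taken out of the *Atp1b1* length, its mean share rose from 47.3 to 52.5% in nt-shRNA, from 43.8 to 48.9% with shRNA1 and from 45.3 to 50.5% with shRNA2, so which of these isoforms led in the knockdown cells depended on the length used. The TPM ratio of *Atp1b2* to *Atp1b1* was 0.368 and 0.388 in nt-shRNA, 0.210, 0.212 and 0.246 with shRNA1, and 0.109, 0.112 and 0.109 with shRNA2. The shRNA2 libraries were nearly equal in this ratio although their *Atp1b1* levels differed.

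**Figure D3:**
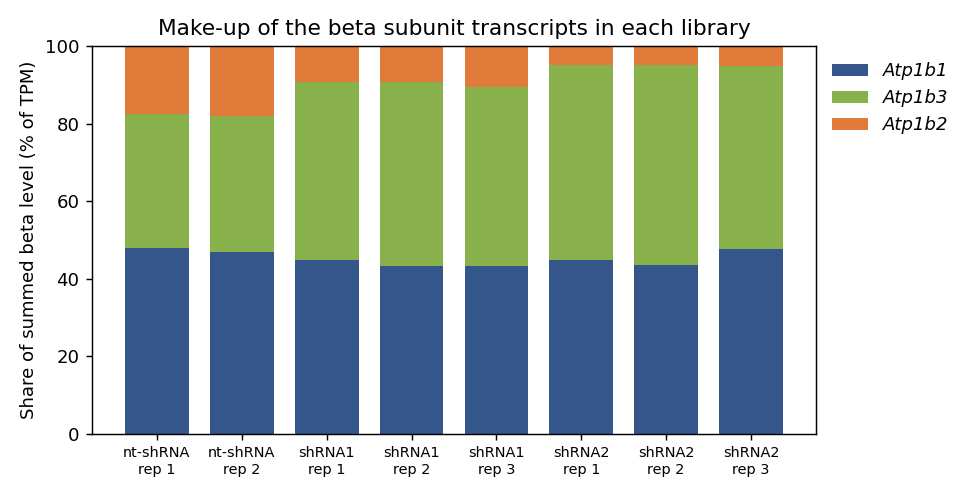
Share of each β subunit in the summed β level of each library (percent of TPM, stacked to 100). The *Atp1b2* part shrinks from 17.6 and 18.2% in nt-shRNA to 9.18 to 10.7% with shRNA1 and 4.85 to 5.19% with shRNA2, and the *Atp1b3* part widens.

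In the gene lists that follow, the counts stand beside the 30.9% of all genes called with shRNA1 and the 55.9% called with shRNA2, 28.7% lower and 27.2% higher with the latter, and nothing particular to a list is drawn from them. Of 7 FXYD regulators, 6 passed the filter. With shRNA1, 3 were lower and 1 was higher, and with shRNA2, 4 were lower, with median log2 fold changes of -0.42 and -1.50 beside -0.01 and 0.00 for all genes tested. *Fxyd6*, by far the most abundant of them, stood at 404.8 and 415.5 CPM in nt-shRNA, at 205.7, 196.8 and 238.1 CPM with shRNA1, and at 106.1, 90.3 and 125.7 CPM with shRNA2. Its groups did not overlap, and its log2 fold changes of -0.94 (edgeR, adjusted p = 8.3e-07) and -1.93 (edgeR, adjusted p = 3.6e-11) lay close to those of *Atp1b2*. *Fxyd2*, the γ subunit known from the kidney, fell (-0.74 and -2.30), from 18.9 CPM in nt-shRNA to 11.2 and 3.82 CPM. *Fxyd5*, dysadherin, fell (-0.65 and -1.68), and its shRNA1 call was lost without the first nt-shRNA library (-0.61, edgeR, adjusted p = 0.0592) and under scaling by counts per base (-0.41, edgeR, adjusted p = 0.0566). *Fxyd1*, phospholemman, was at or below 0.784 CPM in every library, and its shRNA2 call (-1.32, edgeR, adjusted p = 0.0427) was lost with DESeq2 (adjusted p = 0.12), without either nt-shRNA library (-1.27 and -1.38) and without the first or second shRNA2 library (-1.09 and -1.07). That call was also lost by library size alone (-1.23) and by counts per base (-1.10). *Fxyd4* rose with shRNA1 (0.56, edgeR, adjusted p = 0.0194), a call lost without the second shRNA1 (0.42) or either nt-shRNA library (0.49 and 0.63). *Fxyd3* was not called (0.14 and -0.67), though it passed with shRNA2 without the first shRNA2 library (-1.34, edgeR, adjusted p = 0.014, with values from -1.34 to -0.33 over left-out libraries), and *Fxyd7* was not tested.

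**Figure D4:**
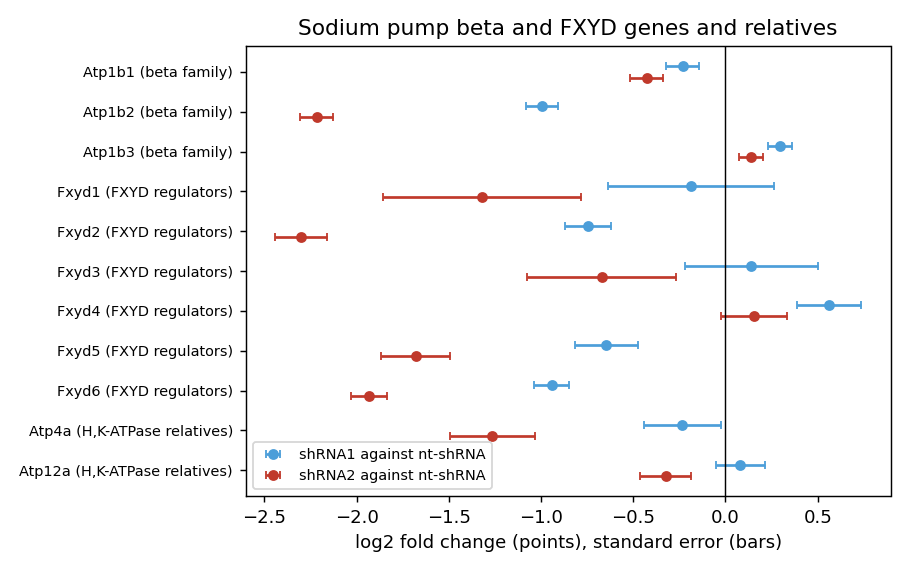
Log2 fold change against nt-shRNA (horizontal axis, bars for SE) of every tested β and FXYD gene and H,K-ATPase relative, shRNA1 in blue and shRNA2 in red. *Atp1b3* lies to the right of 0 with both hairpins, *Fxyd4* does so too, and the red points of the other genes lie to the left.

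The related proton-potassium pumps, which pair with β subunits as well, were near the detection limit or low. *Atp4a*, the gastric α subunit, fell with shRNA2 (-1.26), from 3.31 to 1.37 CPM, and *Atp12a* had a value of -0.32 (edgeR, adjusted p = 0.0529). It passed with a replicate block (-0.41), with only the groups compared (-0.32) and without the last shRNA1 (-0.32) or the last shRNA2 library (-0.37), and it was lower in shRNA2 than in shRNA1 (-0.40, edgeR, adjusted p = 0.0173), which was lost without the last shRNA1 (-0.26) or the first shRNA2 library (-0.36). Neither passed with shRNA1 in edgeR, at an unadjusted p under 0.05 or in DESeq2, which each gave 0 of 2. *Atp4b* was not tested.

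Genes that act on the pump moved in either direction. Of 9 kinases and ligases, 1 was higher and 3 were lower with shRNA1, and 2 were higher and 6 lower with shRNA2. *Sgk1*, a kinase that promotes sodium transport, rose from 276.8 CPM in nt-shRNA to 545.6 CPM with shRNA1 and 779.0 CPM with shRNA2 (log2 fold changes of 0.98 and 1.49), whereas *Stk39* (-1.49) and *Sgk3* (-0.97) fell with shRNA2. *Sgk3* was also lower with shRNA1 (-0.31), a call lost without the second shRNA1 library (-0.29) or either nt-shRNA library (-0.34 and -0.29). That call was also lost by library size alone (-0.20) and by counts per base (-0.08). Of 8 ankyrin and spectrin genes, which anchor the pump to the membrane skeleton, shRNA2 gave 2 higher and 3 lower, including *Ank2* (1.05) and *Ank3* (-0.99), and shRNA1 gave 2 higher and 2 lower. Of the shRNA1 calls, that of *Ank2* was lost without the second nt-shRNA library (0.52). That of *Ank3* was lost without the first nt-shRNA library (-0.35) and by counts per base (-0.15). Of the NKAIN genes, whose products bind β1, *Nkain4* was called lower with shRNA2 against nt-shRNA (-0.87), and *Nkain1* was not called against nt-shRNA with either hairpin (0.12 and -0.07). Between shRNA2 and shRNA1 both were called lower (-0.76 and -0.19), *Nkain1* only narrowly (edgeR, adjusted p = 0.0498). DESeq2 called 1 of the 2 in this comparison, and the edgeR call of *Nkain4* was lost without the second shRNA2 library (-0.60).

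Other cation pumps were counted for comparison. With shRNA1 none of the 14 tested was called by edgeR or by DESeq2, 0 in each, and 1 had an unadjusted p under 0.05. With shRNA2, 2 were higher and 6 lower, the largest changes being those of the scarce calcium pumps *Atp2b2* (-1.23), *Atp2b3* (-1.16) and *Atp2a1* (-0.86, lost with DESeq2, adjusted p = 0.0916, and without either nt-shRNA library or the first or last shRNA2 library, -0.92 to -0.72), with a median over the list of -0.07. Of 17 carriers that use the sodium gradient, 2 were higher and 7 lower with shRNA1, and 5 were higher and 8 lower with shRNA2. The median log2 fold changes were -0.16 and 0.03, and *Slc6a8* was among the carriers called higher with both hairpins (0.49 and 0.75). *Slc1a4* and *Slc1a5*, carriers of neutral amino acids, fell with shRNA1 (-0.75 and -0.37) and with shRNA2 (-1.70 and -0.75), as did the bicarbonate carrier *Slc4a7* (-0.51 and -1.01). The shRNA1 call of *Slc1a5* was lost without the first nt-shRNA library (-0.22) and by counts per base (-0.13), which also ended the shRNA2 call of *Atp2a1* (-0.64).

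*Atp1b2* is also a gene of glia, so markers of astroglia were set beside it. Of the 7 markers, 3 were at or near 0, and *Gfap* stood at no more than 0.963 CPM in any library. *Aldh1l1*, a folate enzyme, fell with *Atp1b2*, from 96.1 to 59.9 to 34.6 CPM (-0.68 and -1.48), whereas *Gja1* (1.81) and *Slc1a3* (0.51, edgeR, adjusted p = 0.0385) rose with shRNA2, so that 2 of the 4 tested markers were higher, 1 was lower, and the median was 0.32. The *Slc1a3* call was lost with DESeq2 (adjusted p = 0.0711) and without the second nt-shRNA (0.33) or either of the first 2 shRNA2 libraries (0.42 and 0.47). The summed level of the list lay between 107.4 and 107.9 CPM in nt-shRNA, between 68.4 and 81.2 CPM with shRNA1 and between 62.1 and 71.0 CPM with shRNA2, and most of it was *Aldh1l1* in nt-shRNA and with shRNA1. Markers of trophectoderm summed to between 229.5 and 236.2 CPM in nt-shRNA, 173.4 and 204.2 CPM with shRNA1, and 139.5 and 156.5 CPM with shRNA2. *Cdx2* did not pass the filter. Of the 6 trophectoderm markers tested, 2 were called lower with shRNA1. With shRNA2, 3 were called lower, the keratins *Krt7*, *Krt18* and *Krt8*, and 3 were not called. Neuron markers summed to between 98.6 and 105.9, 61.6 and 73.9, and 70.0 and 102.4 CPM in the 3 groups. The sums do not stand for each neuron marker. Of the 3 tested, 2 were called higher and 1 lower with shRNA1, at a median log2 fold change of 0.62. With shRNA2, 1 was called higher and 1 lower, at a median of 0.37. Primitive endoderm markers summed to between 23.2 and 23.7, 22.0 and 26.1, and 17.6 and 19.5 CPM. The part of these marker lists in the values of *Atp1b2* was not tested.

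*Atp1b2* lies in a dense stretch of chromosome 11, where 24 other tested genes start within 200 kb of its start. Of these, 3 were higher and 9 lower with shRNA1 and 4 higher and 10 lower with shRNA2, beside 30.9% and 55.9% of all genes called, and their median log2 fold changes were -0.11 and -0.20. No neighbor fell as far as *Atp1b2* with shRNA2, which is no separate result, since *Atp1b2* was selected on its decrease. With shRNA1 *Gm25835* (-1.92) and *Cd68* (-1.24) fell further than *Atp1b2* (-0.99). The nearest tested gene upstream, *Sat2*, at 16.1 kb, fell with both hairpins (-0.48 and -0.93), as did *Fxr2* at 27.0 kb (-0.30 and -0.40). Farther upstream *Sox15*, a transcription factor of stem cells, fell (-0.79 and -1.33), and so did *Cd68* (-1.24 and -1.61), *Fgf11* (-0.61 and -1.02), *Tnfsf12* (-0.88 and -0.94), *Mpdu1* (-0.43 and -0.35) and *Gm25835* (-1.92 and -1.69). *Gm25835* stood at 5.998 and 2.65 CPM in the nt-shRNA libraries, and without the first of them its values were -1.22 and -0.996. The span of *Gm25835* lies within that of *Eif4a1* (-0.06 and 0.04), and that of *Tnfsfm13* covers *Tnfsf12* and *Tnfsf13*, in each case on the same strand. The neighbors are thus not all separate, and exon bases shared among them were not measured. *Tnfsf13* fell with shRNA1 (-0.90), and *Chrnb1* (-0.55), as well as *Dnah2* on the other side (-0.80), fell with shRNA2. The shRNA1 calls of *Sat2* and *Tnfsf13* were lost without either nt-shRNA library (-0.50 and -0.45 for *Sat2*, -0.90 in each case for *Tnfsf13*), without the first shRNA1 library for *Tnfsf13* (-0.66) and without either of the other shRNA1 libraries or the first shRNA2 library for *Sat2* (-0.37, -0.50 and -0.47). Both were also lost with DESeq2 (adjusted p = 0.122 for *Sat2* and 0.11 for *Tnfsf13*), by library size alone (-0.37 and -0.79) and by counts per base (-0.25 and -0.67), and *Sat2* also with a replicate block (-0.46), with no filter (-0.48), with at least 10 counts in every library (-0.45) and with only the groups compared (-0.46). Scaling by counts per base ended the calls of *Mpdu1* (-0.20 and -0.13), of *Fxr2* with shRNA1 (-0.06) and of *Chrnb1* (-0.32).

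On the other side *Trp53*, the gene of p53, starts 25.6 kb beyond the *Atp1b2* start in its direction of transcription. *Trp53* had means of 178.4, 192.2 and 274.5 CPM in nt-shRNA, shRNA1 and shRNA2, with log2 fold changes of 0.11 (edgeR, adjusted p = 0.328) and 0.62. By library size alone and by counts per base the shRNA1 value of *Trp53* was 0.22 (edgeR, adjusted p = 0.041) and 0.34 (edgeR, adjusted p = 0.00266) and passed. *Wrap53*, which starts beside it on the other strand and shares no bases with it, rose by 0.29 and 0.62. *Polr2a*, the largest subunit of RNA polymerase II, rose by 0.30 and 0.45, *Tmem102* rose with shRNA1 (0.42) and *Kdm6b* rose with shRNA2 (0.17). The shRNA1 calls of *Wrap53* and *Tmem102* were lost without the second shRNA1 library (0.26 and 0.35), without the first nt-shRNA library (0.28 and 0.37) or without the second (0.30 and 0.48), and the shRNA2 call of *Kdm6b* was lost when any 1 of 4 libraries was left out (0.14 to 0.19), with a replicate block (0.14) and with no filter (0.15). The other 8 neighbors, *Zbtb4*, *Slc35g3*, *Tnfsfm13*, *Tnfsf13os*, *Senp3*, *Eif4a1*, *Efnb3* and *Dnah2os*, were called with neither hairpin.

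**Figure D5:**
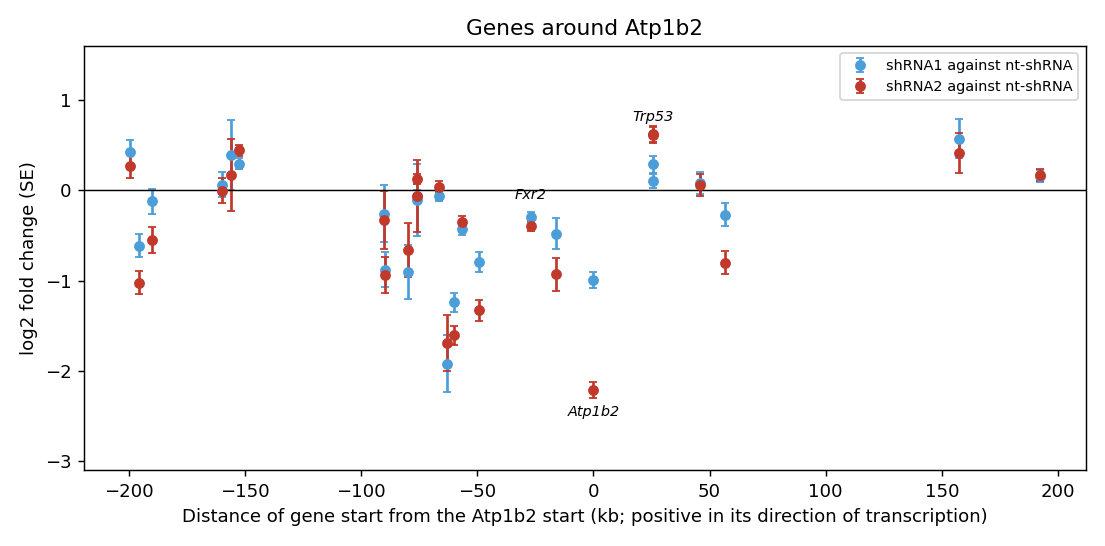
Log2 fold change against nt-shRNA (vertical axis, bars for SE) of *Atp1b2* and the 24 tested genes around it by distance of their starts in kb (horizontal axis, positive in the direction of *Atp1b2* transcription), shRNA1 in blue and shRNA2 in red. Both sides of *Atp1b2* hold genes with higher and genes with lower values, with *Trp53* at 0.62 and *Fxr2* at -0.40 with shRNA2 on either side of *Atp1b2* at -2.21.

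The surroundings of the other β genes held few tested genes. Near *Atp1b1*, 6 were tested and none was called with shRNA1, while *Blzf1* (0.38) was higher and *Ccdc181* (-0.27) lower with shRNA2, the latter not without the second shRNA2 or either nt-shRNA library (-0.28 to -0.24). The call of *Ccdc181* was also lost by library size alone (-0.18) and by counts per base (-0.05). *Nme7*, whose exons overlap those of *Atp1b1*, had log2 fold changes of 0.02 and 0.03. Near *Atp1b3*, the scarce *Gm28729* (1.21 and 1.26) and *Rnf7* (0.26 and 0.39) were higher with both hairpins, *Rnf7* with shRNA1 not without the second nt-shRNA library (0.21), and *Tfdp2* was not called (-0.01 and -0.08).

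The genes whose pattern over the 8 libraries was most like each β gene were found by the root mean square difference of log2 CPM after centering each gene on its mean. They were *Fam114a1* (0.064), *1700029J07Rik* (0.0871) and *Podxl* (0.0877) for *Atp1b2*. *Fam114a1* had means of 30.8, 16.6 and 6.76 CPM, and *Podxl*, a sialomucin of the cell surface, 69.3, 32.8 and 14.2 CPM. For *Atp1b1* they were *Snhg11* (0.049), *Aktip* (0.0491) and *Rnf17* (0.0564), and for *Atp1b3* they were *Nudt4* (0.0379), *Lgals8* (0.0395) and *Mycbp2* (0.0451). The 8 points share their group means, so this likeness mostly reflects the differences between the 3 groups.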

How the data were processed

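Poly(A)-selected RNA of 8 libraries was sequenced as paired 100-base reads. The authors aligned reads with STAR to mm10 and assigned fragments to exons of GENCODE M24 genes with featureCounts 1.6.2 (GRCm38), ignoring strand and dropping multi-mapped and ambiguous fragments. The deposited counts are raw counts per gene, and every column matched 1 sample title. Symbols came from GENCODE M21 for 55144 of 55385 identifiers. Promoter windows came from RefSeq.

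Genes passing filterByExpr (minimum count 10) were TMM-normalized and fitted with edgeR 4.0.16 (glmQLFit, glmQLFTest; R 4.3.3) over all 8 libraries with a coefficient per group. Benjamini-Hochberg adjusted p-values over 17445 genes under 0.05 were called. Calls, not shown for *Atp1b2*, refer to this test unless DESeq2 1.42.0 is named. The biological coefficient of variation was 0.0638. TPM was computed from deposited gene lengths and used only within libraries. Likeness used a prior count of 2. The code was tested on simulated data. Tables and figures used pandas 2.3.3 and matplotlib 3.10.9.

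The β genes and gene lists were chosen with earlier results of these data known. The genes described were *Eftud2*, all β, FXYD and H,K-ATPase genes, up to 3 called genes of each other list with the largest absolute log2 fold change with shRNA2 (cell type markers are mostly given as sums), tested neighbors within 200 kb (for *Atp1b1* and *Atp1b3* those called), the 3 genes most alike, and the 2 on either side of *Atp1b2* in rank. Some genes under this rule are not reported here. *Nme7*, *Tfdp2*, *Nkain1*, *Cdx2*, *Slc6a8* and the results of *Pou5f1* and *Sox2* were added after the values were seen. Libraries of a group were not repeats of one another, since chi-square statistics per gene were at least 3.12. Alternatives changed the normalization, filter, tool and libraries, and those by counts per base and by the *Nme7* overlap were added after seeing the data.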

Additional observations from a re-analysis of the deposited data

How the results depend on the processing

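Same-numbered libraries deviated together at most weakly (correlations between -0.026 and 0.074), and libraries with different numbers gave -0.083 to 0.028. Between shRNA1 and shRNA2 the same-numbered values were 0.022, 0.057 and 0.074. With so few libraries per group these correlations cannot decide whether the replicate number marks a pair. With a replicate block *Atp1b1* passed with shRNA1 (-0.28) and in shRNA2 against shRNA1 (-0.20), and *Atp12a* turned to -0.023 with shRNA1. The block also brought past the threshold *Eftud2* (-0.21), *Gja1* (0.50), *Dnah2* (-0.34) and *Blzf1* (0.23) with shRNA1 and *Atp12a* (-0.41), *Tnfsf13* (-0.73) and *Senp3* (0.14) with shRNA2, and it ended the calls of *Sat2* with shRNA1 (-0.46) and *Kdm6b* with shRNA2 (0.14). The numbers of genes called with shRNA1 were 1713 lower and 4101 higher by library size alone, and 911 and 6313 when scaled by counts per base, which gave 2825 and 7344 with shRNA2. Leaving out single libraries gave 1700 to 3254 lower and 1248 to 2649 higher with shRNA1. The lowest of each came without the first nt-shRNA library for lower genes and without an nt-shRNA library for higher ones.

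*Atp1b1* with shRNA1 passed with no filter (-0.24) and with only the groups compared (-0.21), and ranged from -0.27 to -0.21 over left-out libraries, passing without either of the last 2 shRNA2 libraries. Scaled by counts per base it was 0.0044 with shRNA1 and -0.20 with shRNA2. Between shRNA2 and shRNA1 it passed by library size alone (-0.22) and with no filter (-0.21), and ranged from -0.31 (passing, without the last shRNA2 library) to -0.082 over left-out libraries. *Atp1b2* with shRNA1 was -0.88 by library size alone and -0.76 by counts per base, and -1.99 by counts per base with shRNA2. *Atp1b3* with shRNA2 passed by library size alone (0.23), with at least 10 counts in every library (0.16) and by counts per base (0.36), and ranged from 0.11 to 0.20 over left-out libraries. Its difference between shRNA2 and shRNA1 was -0.17 by counts per base, no longer passing, and ranged from -0.19 to -0.10 over left-out libraries.

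With the *Nme7* overlap removed, mean shares of *Atp1b1*, *Atp1b2* and *Atp1b3* were 52.5, 16.1 and 31.4% in nt-shRNA, 48.9, 8.86 and 42.2% with shRNA1, and 50.5, 4.50 and 45.0% with shRNA2. Ranking by Pearson correlation kept 1 of the 3 genes most like *Atp1b1*, and 0 of those most like *Atp1b2* and 0 of those most like *Atp1b3*.

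Genes with no call changed sign as follows. By counts per base with shRNA1 the values were 0.045 for *Fxyd1*, 0.057 for *Eftud2*, 0.13 for *Nkain4*, 0.064 for *Stk39*, 0.093 for *Atp2b3*, 0.12 for *Chrnb1*, 0.12 for *Tnfsf13os*, 0.18 for *Senp3* and 0.17 for *Eif4a1*, and with shRNA2 0.21 for *Zbtb4* and 0.15 for *Tnfsf13os*. By library size alone they were 0.0076 for *Nkain4*, 0.0075 for *Tnfsf13os*, 0.056 for *Senp3* and 0.052 for *Eif4a1* with shRNA1, and 0.083 for *Zbtb4* and 0.025 for *Tnfsf13os* with shRNA2, and with at least 10 counts in every library *Zbtb4* was 0.020. Over left-out libraries with shRNA1, *Atp12a* ranged from -0.065 to 0.17, *Atp2a1* from -0.035 to 0.32, *Fxyd1* from -0.93 to 0.076, *Fxyd3* from -0.0012 to 0.30, *Tnfsf13os* from -0.56 to 0.33, *Tnfsfm13* from -0.58 to 0.18 and *Zbtb4* from -0.033 to 0.17. With shRNA2, *Slc35g3* ranged from -0.22 to 0.56, *Tnfsf13os* from -0.38 to 0.37, *Tnfsfm13* from -0.65 to 0.10 and *Zbtb4* from -0.11 to 0.099. The cause of these changes was not tested.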
